A study of Mus musculus with 42 samples.

Results

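The nuclear genes of oxidative phosphorylation were examined in forebrain neuronal cultures and in the hippocampus of mice of 3 genotypes. Members were all autosomal protein-coding genes in the count files whose symbols begin with Nduf, Uqcr, Atp5, Cox4i, Cox5, Cox6, Cox7 or Cox8, plus Sdha, Sdhb, Sdhc, Sdhd, Cycs and Cyc1. This gave 92 genes of the 52636 in the files, 20675 of which are autosomal and protein-coding. The members comprise 34 genes of complex I, 8 assembly factors of complex I, 4 genes of complex II, 9 of complex III, 17 of complex IV, 17 of complex V, cytochrome c, and the pair Ndufa4 and Ndufa4l2.

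RNA-seq covered cultures of neurons taken from the forebrain at embryonic day 16, and each genotype (euploid, Ts65Dn, Ts65Dn;Brwd1+/-) had 3 libraries. Ts65Dn mice are a Down syndrome model that carries an extra segment of distal chromosome 16, including the chromatin regulator Brwd1, and of proximal chromosome 17. In Ts65Dn;Brwd1+/- mice the same extra segment is combined with 1 inactivated copy of Brwd1 (the repro5 allele), and all 3 genotypes share a mixed DBA/2J and B6EiC3Sn/J background. The labels call the cultures pooled male and female, and the study's methods describe treatment with AraC, an inhibitor of dividing cells. The hippocampus of adult males supplied SMARCA2/4 ChIP-seq at 6 to 8 weeks, with 4 immunoprecipitations and 4 inputs per genotype, each from the pooled unilateral hippocampi of a pair of animals, and ATAC-seq of neuronal (NeuN+) nuclei, with 3 libraries per genotype. SMARCA2 and SMARCA4 are the ATPases of the BAF chromatin remodeler.

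Oxidative phosphorylation takes place in the inner mitochondrial membrane. Complexes I and II pass electrons from NADH and succinate to ubiquinone, complex III passes them to cytochrome c, and complex IV passes them from cytochrome c to oxygen. Complexes I, III and IV pump protons across the membrane, and complex V, the ATP synthase, makes ATP as the protons flow back. A few subunits are encoded by mitochondrial DNA and the others by nuclear genes, and neurons depend heavily on this supply of ATP.

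Depth was 17270070 to 25892802 gene counts per culture library, and members together took 0.658% to 0.803% of the counts. The labels were checked first on Brwd1, which averaged 89.4 ± 3.66 CPM (counts scaled by library size; mean ± SD, n = 3 libraries, as throughout) in euploid, 126.8 ± 2.13 in Ts65Dn and 138.5 ± 12.3 in the libraries labelled Ts65Dn;Brwd1+/-. The last pair did not differ detectably (log2 fold change 0.13, edgeR adjusted p = 0.186), so Brwd1 RNA was not detectably lower in the libraries whose label gives 1 mutant allele. In other samples, of embryonic forebrain, the paper reports by qPCR that this cross reversed the Brwd1 increase of male Ts65Dn mice. Xist, the RNA of the inactive X chromosome in females, averaged 0.775 CPM in euploid, 0.931 in Ts65Dn and 1779 in the libraries labelled Ts65Dn;Brwd1+/-, so sex and that genotype cannot be told apart. Replicates are separate libraries, and p-values measure only the spread between them.

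Of the 92 genes, 86 had enough counts to be tested. The other 6 were Ndufs3, a core subunit of complex I, Uqcrc1, a core subunit of complex III, and Cox4i2, Cox7b2, Cox8b and Cox8c, paralogs of complex IV subunits known from lung, testis or muscle. Ndufs3 had 0 or 1 count in every library. Uqcrc1 had 1 to 7 counts in 8 libraries and 81 in replicate 2 labelled Ts65Dn;Brwd1+/-. Since every respiring cell uses both genes, their levels cannot be read from these counts. Reads that aligned to several places were not counted, so members with near-identical copies elsewhere in the genome, such as Cycs, may also be underestimated.

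Levels between genes were compared per kilobase of all annotated exons, so they depend on the annotation. In euploid cultures the highest was Cox6a1, a small structural subunit of complex IV, at 458 CPM per kilobase, followed by Cox8a at 250.5, the catalytic ATP synthase subunits Atp5a1 at 242 and Atp5b at 240.5, Cox6b1 at 225 and Cox4i1 at 165. Atp5a1 and Atp5b differed by less than their spread between libraries, as did each of them from Cox8a. The tissue-specific paralogs were low. Per kilobase, the heart and muscle form Cox6a2 stood at 4.85 and the muscle form Cox7a1 at 0.567, against 64.6 for the ubiquitous Cox7a2. The testis form Cox6b2 was higher, at 21.1. Of the 3 genes that encode the same c-ring subunit of ATP synthase, Atp5g3 led with 90.35 CPM per kilobase, before Atp5g2 with 12.6 and Atp5g1 with 6.35. By CPM alone Atp5g1 averaged above Atp5g2 in euploid, so the order of that pair rests on annotated exon length.

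Promoter sequences were searched for the binding letters of 3 factors known to act on nuclear respiratory genes, a feature that the choice of members did not use. RefSeq (GRCm38.p6) gave a promoter of 300 bases, 250 before and 50 after the start, for 72 of the 92 members, 77 promoters in all. The NRF1 letters GCGCATGCG, on either strand, were in 14.3% of member promoters and in 1.75% of all 32851 promoters. The ETS letters CCGGAAG, bound by GABPA among others, were in 23.4% and 8.86%. The YY1 letters AAGATGGCG were in 10.4% and 1.40%. At least 1 of the 3 was present in 40.3% of member promoters, from 31 genes, and in 11.4% of all promoters. The NRF1 letters are nearly palindromic, so 1 site often matches on both strands. A selection of these sites, in members described afterwards and chosen after their values were seen, follows here, with the matched letters in capitals and the gene strand read 5′ to 3′.
Atp5j, YY1 (chr16:84835046-84835074, minus strand): aagtgtaggaAAGATGGCGgagtcttagc
Atp5j, ETS (chr16:84835021-84835047, minus strand): gctgagggacCCGGAAGcacttaccct
Cox6a1, NRF1 (chr5:115349102-115349130, minus strand): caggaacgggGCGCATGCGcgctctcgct
Cox6a1, ETS (chr5:115348958-115348984, minus strand): cccatttccgCTTCCGGcgcgccggtg
Cox6b1, ETS (chr7:30626126-30626152, minus strand): cctctcgcagCTTCCGGccagtcggaa
Cox8a, ETS (chr19:7217605-7217631, minus strand): ttccgaaataCTTCCGGctcgggcgtc
Ndufaf4, NRF1 (chr4:24897960-24897988, plus strand): ccagatgtctGCGCATGCGcctgtgcgga
Ndufaf5, NRF1 (chr2:140170652-140170680, plus strand): agtcccgttgGCGCATGCGcctaatagaa
Atp5g2, NRF1 (chr15:102671071-102671099, minus strand): ggctccggccGCGCATGCGcagagccttc
Cycs, NRF1 (chr6:50566612-50566640, minus strand): catgctagctCGCATGCGCgcgcacaaac

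A pair of complex V genes, Atp5j and Atp5o, lies on chromosome 16 in the triplicated segment, and both were higher in the trisomic cultures. Atp5j (ENSMUSG00000022890, chr16:84827866-84835625, mm10), which encodes coupling factor 6 of the peripheral stalk, had 76.3, 74.2 and 73.8 CPM in euploid, 119.8, 112 and 123 in Ts65Dn, and 116, 115.6 and 113.9 in the libraries labelled Ts65Dn;Brwd1+/-. The trisomic libraries all lay above the euploid ones and the trisomic groups overlapped. Atp5j rose 1.58-fold in Ts65Dn against euploid (log2 fold change 0.66, SE 0.06, edgeR quasi-likelihood adjusted p = 4.33e-05), and the libraries labelled Ts65Dn;Brwd1+/- did not differ detectably from Ts65Dn (log2 fold change -0.04, adjusted p = 0.613).

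Atp5o (ENSMUSG00000022956, chr16:91925214-91931687), the stalk subunit known for oligomycin sensitivity, had 104, 112 and 111 CPM in euploid, 166.5, 154 and 149 in Ts65Dn, and 199.5, 183 and 200.1 in the libraries labelled Ts65Dn;Brwd1+/-. The 3 groups did not overlap. It rose 1.44-fold in Ts65Dn against euploid (log2 fold change 0.52, SE 0.07, adjusted p = 4.86e-04) and was 1.24-fold higher again in the libraries labelled Ts65Dn;Brwd1+/- than in Ts65Dn (log2 fold change 0.31, adjusted p = 0.00478). Another gene on the opposite strand overlaps 35.6% of the exon bases of Atp5o and 12.7% of those of Atp5j, and reads of the partners cannot be told apart without strand. For Atp5j the neighbor on the other strand is Gabpa (chr16:84834925-84863779), itself triplicated, which encodes the ETS factor named above and was 1.76-fold higher in Ts65Dn than in euploid (adjusted p = 9.4e-05). The 132 tested triplicated genes that are not members had a median log2 fold change of 0.63 in Ts65Dn against euploid.

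Ndufv3, a complex I gene whose human counterpart lies on chromosome 21, is on chromosome 17 outside the triplicated segment. It had 54.0, 55.2 and 52.1 CPM in euploid and 54.1, 47.1 and 49.1 in Ts65Dn, which overlapped (log2 fold change -0.10, adjusted p = 0.282). In the libraries labelled Ts65Dn;Brwd1+/- it had 62.8, 57.6 and 60.6 CPM, 1.204-fold above Ts65Dn (log2 fold change 0.27, adjusted p = 0.0097).

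**Figure D1:**
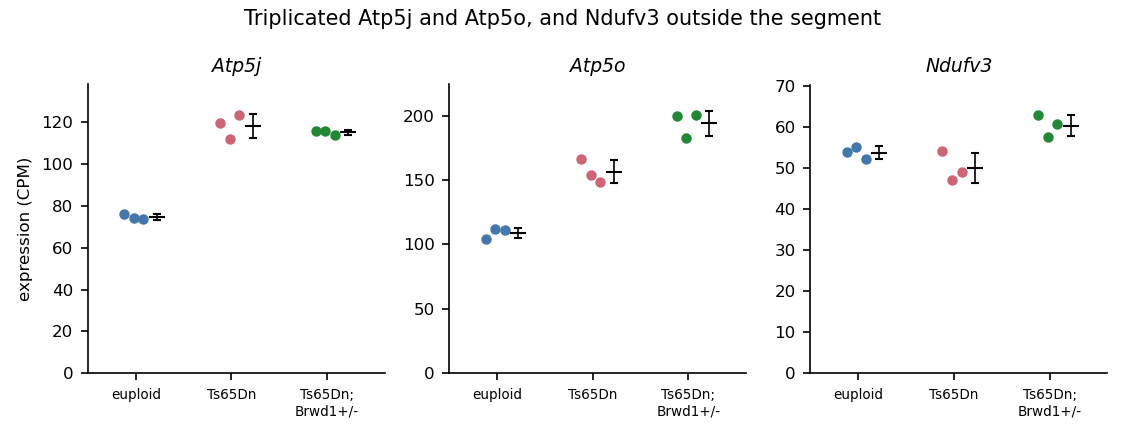
Expression (CPM) of the triplicated Atp5j and Atp5o and of Ndufv3, which lies outside the segment. Each point is 1 library and the bars give the mean and SD of 3 libraries; the trisomic points of Atp5j and Atp5o all lie above the euploid points, while those of Ndufv3 in Ts65Dn (47.1 to 54.1) overlap the euploid ones. The rightmost group is as labelled.

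The comparison of Ts65Dn with euploid asks how the extra segment changed these genes in culture. Complex IV showed the largest differences: its paralog Cox6b2 was 2.79-fold higher, while 3 of its most abundant subunits, Cox6a1, Cox6b1 and Cox8a, were 0.7501 to 0.7866 times their euploid level. Among all 86 tested members, 11 were higher and 11 lower. That is 22 called members, against 46.7% of all 17173 tested genes called (25.6% higher and 21.1% lower). The median log2 fold change over tested members was -0.05, beside 0.04 over all tested genes, and went from -0.102 without Ts65Dn replicate 1 to -0.003 without Ts65Dn replicate 3. Of the 84 tested members outside the triplicated segment, 9 were higher and 11 lower. Groups did not overlap for 14 of the 86 members on the higher side and 19 on the lower. Of all 17173 tested genes these were 5366 and 4380, so lack of overlap was common.
A fit that leaves out 1 library has fewer replicates, so calls can be lost at an unchanged fold. The count moved with single libraries left out and with scaling. It was 12 without euploid replicate 1 and 13 without Ts65Dn replicate 2, and the 11 higher and 11 lower became 13 and 7 with upper-quartile scaling, 8 and 17 with a filter of 10 counts in every library, 6 and 11 with no filter, and 7 and 21 once a trend of each library on exon length was removed. With only the 6 euploid and Ts65Dn libraries fitted, 7 were higher and 10 lower, and with the replicate number as a block 11 were higher and 14 lower.

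**Figure D2:**
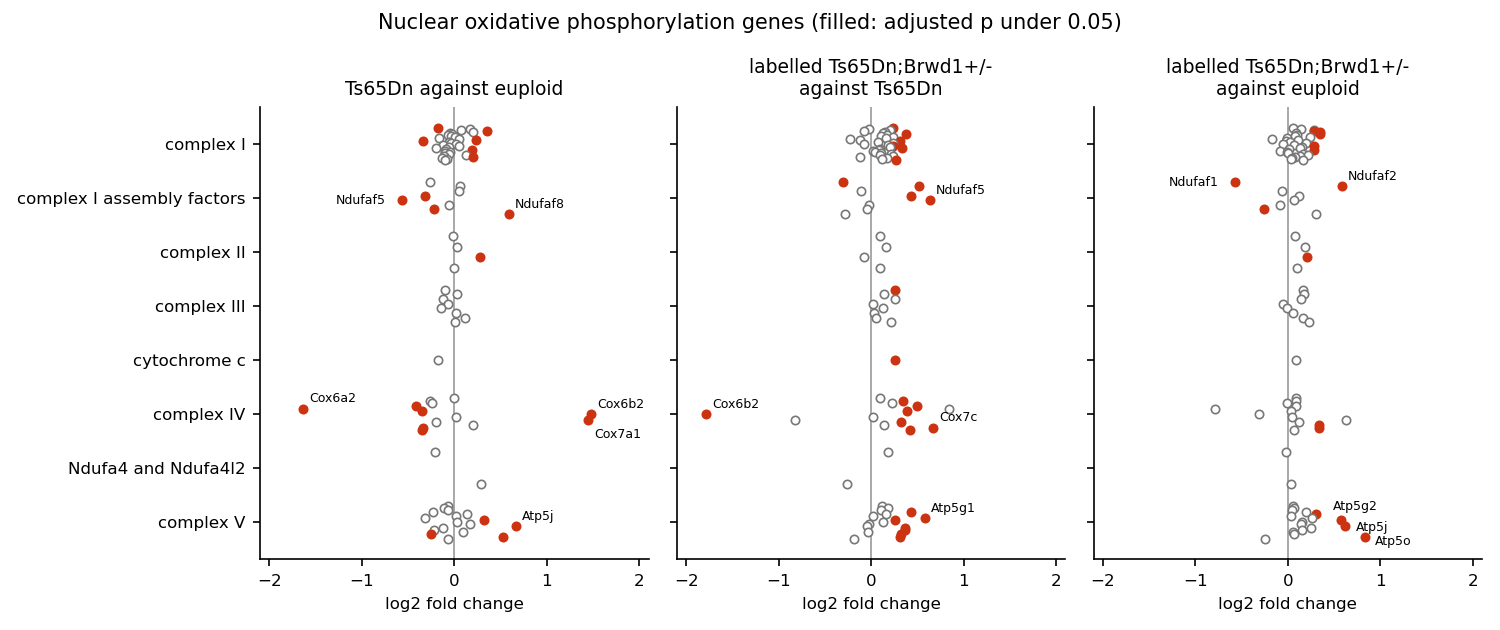
Log2 fold change of each tested member (1 point per gene, 86 in all) by complex in the 3 comparisons; filled points have an edgeR adjusted p under 0.05. In the middle panel 67 of 86 points lie right of 0, with Cox6b2 far to the left, and the 3 comparisons share libraries.

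Complex I, with 33 tested subunit genes, had 4 higher and 2 lower in Ts65Dn than in euploid and a median log2 fold change of -0.05. This balance was not stable: it was 1 and 0 without euploid replicate 1, 3 and 0 without euploid replicate 2 or Ts65Dn replicate 3, 1 and 1 without euploid replicate 3, 1 and 3 without Ts65Dn replicate 1, 2 and 0 without Ts65Dn replicate 2, 2 and 3 with DESeq2 and 1 and 5 with the exon length trend removed. Ndufa13, also known as the cell death regulator Grim19, rose from 58.0 ± 7.51 to 74.4 CPM (log2 fold change 0.36, SE 0.09, adjusted p = 0.0107), and 30% of its exon bases are shared with a gene on the other strand. Ndufb10, Ndufc2 and the iron-sulfur subunit Ndufs8 rose by log2 fold changes of 0.19 to 0.23, but all 3 calls were lost without euploid replicate 1 (0.17 to 0.20), without euploid replicate 3 (0.12 to 0.19) or without Ts65Dn replicate 1 (0.18 to 0.22), and each also without at least 1 more library. All 3 were lost as well with no filter (0.15 to 0.19), with only the 2 groups fitted (0.16 to 0.20) and with the exon length trend removed (0.08 to 0.12), and those of Ndufc2 and Ndufs8 with DESeq2 (0.17 and 0.18) and with 10 counts in every library (0.15 and 0.16). Ndufb2, an accessory subunit, fell from 10.6 to 8.39 CPM (log2 fold change -0.34, adjusted p = 0.0376), a call that was lost without any 1 of euploid replicates 1 and 2 and Ts65Dn replicates 2 and 3 (-0.37 to -0.24). Ndufa10 fell by 0.18 on the log2 scale, a call kept in only 1 of the 6 fits that left out a library, that without Ts65Dn replicate 1. The NADH-binding subunit Ndufv1 and the core subunit Ndufs1 had log2 fold changes of -0.13 and -0.11, neither past the threshold.

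The 8 complex I assembly factors, which build the complex and are not part of it, had 3 lower and 1 higher, with a median log2 fold change of -0.14. Ndufaf5, a methyltransferase that modifies Ndufs7, had 12.04, 12.9 and 12.57 CPM in euploid and 9.76, 9.29 and 6.36 in Ts65Dn, with no overlap between the groups (log2 fold change -0.56, SE 0.14, adjusted p = 0.00913). Ndufaf4 fell from 16.6 to 13.4 CPM (log2 fold change -0.31, adjusted p = 0.00849) and Ndufaf7, another methyltransferase, from 36.2 to 31.1 (-0.22, adjusted p = 0.0449), the latter call lost without euploid replicate 1 (-0.20) or 3 (-0.24) or Ts65Dn replicate 2 (-0.17) or 3 (-0.21). Ndufaf8 moved the other way, from 4.56, 7.24 and 5.55 CPM to 8.86, 9.43 and 7.86 (log2 fold change 0.59, adjusted p = 0.0124), a call lost without euploid replicate 3 (0.51).

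In complex II, which also belongs to the citric acid cycle, the membrane anchor Sdhc rose from 79.1, 78.5 and 86.4 CPM to 96.9, 98.1 and 100.9 (log2 fold change 0.28, SE 0.06, adjusted p = 0.0055), a call lost with no filter on low counts (0.24, adjusted p = 0.0731). The flavoprotein Sdha, the iron-sulfur subunit Sdhb and the other anchor Sdhd had log2 fold changes of -0.02, 0.03 and -0.00 and were not called. In complex III none of 8 tested genes was called by edgeR, with 0 at an unadjusted p under 0.05 and 0 by DESeq2, and the median was -0.03. The cytochrome c1 gene Cyc1 had a log2 fold change of -0.10 (adjusted p = 0.363) and cytochrome c itself, Cycs, one of -0.18 (adjusted p = 0.156).

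Complex IV, with 13 tested genes, had 5 lower and 2 higher, and a median log2 fold change of -0.24, which stayed negative under each scaling tried. With the replicate number as a block 7 were lower, and with 1 library left out 3 to 7 were, 3 of them without euploid replicate 1 or 2 or Ts65Dn replicate 2 or 3. Cox6a1 had 305, 371 and 288 CPM in euploid and 253, 245 and 224 in Ts65Dn, with no overlap (log2 fold change -0.42, SE 0.13, adjusted p = 0.0211), a call lost without euploid replicate 2 (-0.30). Cox6b1, which bridges the monomers of the complex, had 160.3, 162 and 156 CPM in euploid and 141, 122 and 112 in Ts65Dn (log2 fold change -0.35, SE 0.10, adjusted p = 0.0138). For both genes every Ts65Dn library lay below every euploid one.

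Cox8a had 144, 174 and 147 CPM in euploid and 141, 117 and 108 in Ts65Dn (log2 fold change -0.35, adjusted p = 0.0477). This call was the weakest of the group and was lost without any 1 of euploid replicates 1 and 2 and Ts65Dn replicates 2 and 3 (-0.40 to -0.26). Cox7c fell from 18.4 ± 1.51 to 14.6 CPM (log2 fold change -0.33, adjusted p = 0.0227), a call lost without euploid replicate 1 (-0.27) or Ts65Dn replicate 2 (-0.32) or 3 (-0.26). By contrast Cox4i1, the abundant regulatory subunit, had 250.1, 268 and 250.3 CPM in euploid and 267, 256 and 242 in Ts65Dn, and was not called (log2 fold change -0.01, adjusted p = 0.948). Ndufa4, named for complex I but now counted as a subunit of complex IV, had 148, 129.3 and 138.8 CPM in euploid and 128.7, 120.5 and 111.7 in Ts65Dn, just short of overlapping. It missed the threshold (log2 fold change -0.20, adjusted p = 0.0564), but passed it in 8 of 15 alternatives. These were the replicate number as a block (-0.21, adjusted p = 0.0395), leaving out euploid replicate 2 (-0.25) or Ts65Dn replicate 1 (-0.26), and DESeq2 (-0.23, adjusted p = 0.0354). It also passed with DESeq2 scaling in edgeR (-0.23), 10 counts in every library (-0.25), the exon length trend removed (-0.32) and 1 residual factor (-0.20). Its paralog Ndufa4l2, known from hypoxia, was near 0.4 CPM in euploid and was not called in any comparison.

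The 3 largest changes in complex IV were in tissue-specific paralogs. Cox6b2, the testis counterpart of Cox6b1, had 17.4, 26.4 and 26.4 CPM in euploid and 66.9, 62.3 and 66.8 in Ts65Dn (log2 fold change 1.48, SE 0.16, adjusted p = 8.72e-05). Per kilobase it rose from 21.1 to 59.0, while Cox6b1 went from 225 to 176. Cox6a2, the heart and muscle counterpart of Cox6a1 that is also known from parvalbumin interneurons, had 2.67, 5.00 and 2.23 CPM in euploid and 1.35, 0.988 and 0.839 in Ts65Dn, a fall to 0.322 times the euploid level (log2 fold change -1.63, SE 0.34, adjusted p = 0.00347). Cox7a1 rose by a log2 fold change of 1.45 (adjusted p = 0.00874), from 5 to 9 counts per library in euploid to 15 to 21 in Ts65Dn, so it remained far below Cox7a2. None of the 3 paralogs overlapped between the groups.

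**Figure D3:**
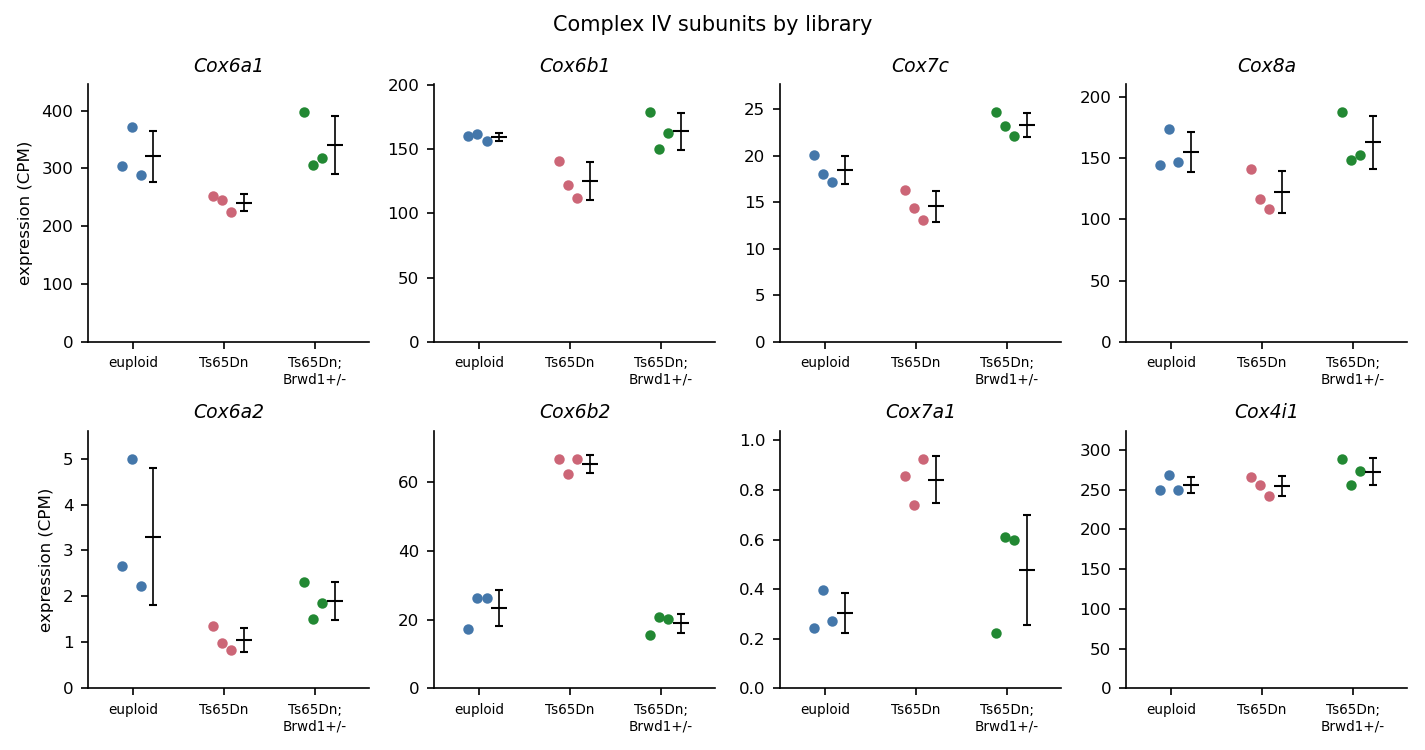
Expression (CPM) of 8 complex IV genes in each library (points) with mean and SD of 3 libraries (bars). The upper row holds Cox6a1, Cox6b1, Cox7c and Cox8a, which lie lower in Ts65Dn. The lower row holds the tissue-specific paralogs Cox6a2, Cox6b2 and Cox7a1, and Cox4i1. Cox6b2 lies between 62.3 and 66.9 CPM in Ts65Dn and at most 26.4 in the other libraries. The rightmost group is as labelled.

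Complex V, with 17 tested genes, had 3 higher, among them the triplicated pair, and 1 lower. The other higher gene was Atp5g2, with 17.7, 23.99 and 21.4 CPM in euploid and 27.4, 26.2 and 25.4 in Ts65Dn (log2 fold change 0.32, SE 0.10, adjusted p = 0.0259), a call lost without euploid replicate 1 (0.21) or 3 (0.28) or Ts65Dn replicate 1 (0.29) or 2 (0.33), with no filter (0.28), with only the 2 groups fitted (0.29) and with the exon length trend removed (0.21). The gene for the same protein that carried most of its RNA, Atp5g3, had a log2 fold change of 0.03 (adjusted p = 0.792), and Atp5g1 one of -0.32 (adjusted p = 0.104), which was called without Ts65Dn replicate 1 (-0.47). Atp5mpl, a small membrane subunit, fell by 0.25 on the log2 scale (adjusted p = 0.0412) although its groups overlapped, a call lost without euploid replicate 1 (-0.20) or Ts65Dn replicate 2 (-0.23) or 3 (-0.18), with only the 2 groups fitted (-0.28) and with upper-quartile scaling (-0.23). The catalytic Atp5b averaged 1019 ± 12.9 CPM in euploid and 942 in Ts65Dn (log2 fold change -0.11, adjusted p = 0.25).

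The comparison of the libraries labelled Ts65Dn;Brwd1+/- with Ts65Dn was designed to ask what 1 inactivated copy of Brwd1 changes on the trisomic background, but Brwd1 RNA was not detectably lower in these libraries, and sex differed as given above. Of 86 tested members 24 were higher (27.9%) and 2 lower (2.33%), against 27.6% and 30.5% of all tested genes (58.1% called in all), so the share called higher was near that of all genes. By fold the first 5 were Cox7c at 1.60-fold, the assembly factor Ndufaf5 at 1.55-fold, Atp5g1 at 1.496-fold, the assembly factor Ndufaf2 at 1.44-fold and Cox6a1 at 1.41-fold, while Cox6b2 was at 0.289 times its level in Ts65Dn. The median log2 fold change was 0.15 over members and 0.00 over all tested genes, and 67 of 86 members had a positive sign. Among protein-coding genes of like exon length, 3274 without the members, the median was -0.06. Outside the triplicated segment 23 of 84 members were higher and 2 lower. Groups did not overlap for 41 of the 86 members on the higher side and 9 on the lower, and for 5763 and 5990 of all 17173 tested genes. The count was 15 without replicate 1 labelled Ts65Dn;Brwd1+/-, 40 at an adjusted p under 0.1, and 48 (46 higher and 2 lower) once the exon length trend was removed. This comparison shares its Ts65Dn libraries with the previous one, so a low Ts65Dn value enters both.

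By complex, 6 of 33 complex I subunit genes were higher than in Ts65Dn, with a median log2 fold change of 0.15. The count was 4 to 10 with 1 library left out, highest without Ts65Dn replicate 1, 12 with 10 counts in every library, 11 with 1 residual factor and 15 with the exon length trend removed, and the median was 0.088 to 0.189 with 1 library left out, lowest without Ts65Dn replicate 3. Ndufa5, an accessory subunit, had 25.8, 22.03 and 20.7 CPM in Ts65Dn and 31.5, 28.2 and 29.3 in the libraries labelled Ts65Dn;Brwd1+/- (log2 fold change 0.38, SE 0.09, adjusted p = 0.00607). Ndufb9 rose by 0.33, Ndufb2 by 0.31, Ndufv3 by 0.27, and Ndufa10 and Ndufb7 by 0.24 each on the log2 scale. None of these 6 overlapped between the groups, but the Ndufb2 call was lost in 4 of the 6 fits that left out 1 library (0.21 to 0.34) and the Ndufb7 call in 5 (0.19 to 0.27), both kept without Ts65Dn replicate 1. The Ndufb2 call was also lost with DESeq2 (0.33, adjusted p = 0.0587), with only the 2 groups fitted (0.31) and with the exon length trend removed (0.31).

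Among the assembly factors, Ndufaf5 had 13.3, 12.6 and 13.5 CPM, above each Ts65Dn value (log2 fold change 0.63, adjusted p = 0.00333), close to its euploid mean of 12.5. Ndufaf4 rose from 13.4 to 18.1 CPM (log2 fold change 0.44, adjusted p = 8.88e-04). Ndufaf2, a chaperone of late assembly, had 8.62, 8.69 and 7.24 CPM in Ts65Dn and 11.8, 11.2 and 12.2 in the libraries labelled Ts65Dn;Brwd1+/- (log2 fold change 0.52, SE 0.10, adjusted p = 0.0012). Because 65.6% of the exon bases of Ndufaf2 lie under a gene on the other strand, its value is uncertain. Ndufaf1, which acts early in assembly, was lower by a log2 fold change of 0.31 (from 12.8 to 10.3 CPM, adjusted p = 0.0396), a call lost in 5 of the 6 fits that left out 1 library, all except that without Ts65Dn replicate 3 (-0.33 to -0.27), and also with DESeq2 (-0.29), with no filter (-0.28), with 10 counts in every library (-0.26) and with the exon length trend removed (-0.18).

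In complex II none of 4 genes was called by edgeR, with 1 at an unadjusted p under 0.05 and 0 by DESeq2. In complex III only Cyc1 was called, from 111 to 133 CPM (log2 fold change 0.26, adjusted p = 0.0238). Cycs rose from 10.7 to 12.9 CPM (log2 fold change 0.26, adjusted p = 0.0356). The Cyc1 call was lost without Ts65Dn replicate 3 (0.19) or without replicate 1 (0.23) or 3 (0.26) labelled Ts65Dn;Brwd1+/-. The Cycs call was lost without any 1 of 5 libraries, all except Ts65Dn replicate 1 (0.20 to 0.29), with DESeq2 (0.28, adjusted p = 0.0564) and with no filter (0.29).

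Complex IV had 6 of 13 genes higher and 1 lower, and a median log2 fold change of 0.33. Of the 13, 3 were higher without replicate 1 labelled Ts65Dn;Brwd1+/-, 4 without Ts65Dn replicate 2 or 3, and 10 with the exon length trend removed. Cox7c had 16.4, 14.4 and 13.1 CPM in Ts65Dn and 24.7, 23.2 and 22.1 in the libraries labelled Ts65Dn;Brwd1+/-, well apart (log2 fold change 0.67, SE 0.10, adjusted p = 3.12e-04). Cox6a1 had 398, 307 and 318 CPM (log2 fold change 0.50, adjusted p = 0.00645) and Cox6b1 had 179, 149.8 and 163 (0.39, adjusted p = 0.00612). Cox5a, one of the core nuclear subunits, and Cox7a2 rose by 0.35 and 0.33 on the log2 scale, the Cox5a call being lost without Ts65Dn replicate 3 (0.27) or replicate 1 labelled Ts65Dn;Brwd1+/- (0.27).

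Cox8a had 188, 149 and 152 CPM (log2 fold change 0.42, adjusted p = 0.0179), a call lost without Ts65Dn replicate 2 (0.38) or replicate 1 labelled Ts65Dn;Brwd1+/- (0.31). Cox7a2 was not called without Ts65Dn replicate 2 (0.30) or 3 (0.24) or without replicate 1 (0.26) or 3 (0.35) labelled Ts65Dn;Brwd1+/-. Cox6b2 returned to 15.65, 20.8 and 20.3 CPM, below every Ts65Dn library (log2 fold change -1.79, SE 0.16, adjusted p = 1.11e-05). Cox6a2 and Cox7a1 had log2 fold changes of 0.84 (adjusted p = 0.0685) and -0.82 (adjusted p = 0.0544), short of the threshold. Cox6a2 passed it with no filter (adjusted p = 0.0148), with only the 2 groups fitted (0.0229), with the exon length trend removed (0.0481) and with 1 residual factor (0.0216), and Cox7a1 with 1 residual factor (0.0493). Without replicate 1 labelled Ts65Dn;Brwd1+/- the Cox7a1 value was -0.47.

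Complex V had 7 of 17 genes higher, a count of 4 without replicate 1 labelled Ts65Dn;Brwd1+/-, 4 to 6 over all fits with 1 library left out, and 10 with 10 counts in every library or with the exon length trend removed. Atp5g1 had 30.0, 25.0 and 20.1 CPM in Ts65Dn and 42.9, 32.9 and 36.6 in the libraries labelled Ts65Dn;Brwd1+/- (log2 fold change 0.58, SE 0.15, adjusted p = 0.00676). Atp5d, of the central stalk, went from 162 to 219 CPM (0.43, adjusted p = 0.0162), a call lost without Ts65Dn replicate 1 (0.37) or replicate 1 labelled Ts65Dn;Brwd1+/- (0.37). Atp5k and Atp5j2, small membrane subunits, rose by 0.37 each on the log2 scale, and Atp5mpl by 0.32. The Atp5k call was lost without Ts65Dn replicate 2 (0.32) or 3 (0.27) or replicate 1 (0.36) or 3 (0.36) labelled Ts65Dn;Brwd1+/-.

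Atp5g2 was at the edge of the threshold (log2 fold change 0.26, adjusted p = 0.0497), and its call was lost whichever of the 6 libraries was left out (0.23 to 0.28), with DESeq2 (0.28, adjusted p = 0.052), with upper-quartile scaling (0.24) and with the replicate number as a block (0.26, adjusted p = 0.0549). The abundant Atp5a1, Atp5b and Atp5g3 had log2 fold changes of 0.12, 0.18 and 0.13, none called by edgeR in the main fit, although each gene's groups did not overlap. Atp5g3 was called with 10 counts in every library (0.18, adjusted p = 0.0416) and with the exon length trend removed (0.24, adjusted p = 0.0145).

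The last comparison set the libraries labelled Ts65Dn;Brwd1+/- beside euploid and had 13 members higher and 2 lower, against 14% and 15.2% of all tested genes (29.2% called in all). The median log2 fold change was 0.09 over members and -0.02 over all tested genes, and 69 of 86 members had a positive sign. Groups did not overlap for 28 members on the higher side and 4 on the lower, and for 3838 and 4047 of all 17173 tested genes. The triplicated Atp5o and Atp5j led, 1.78-fold and 1.54-fold higher, and 11 of the 84 other members were higher and 2 lower. The count fell in most fits that left out 1 library, which also have fewer replicates. It was 9 without euploid replicate 1, 6 without euploid replicate 3, and 8, 8 and 5 without replicates 1, 2 and 3 labelled Ts65Dn;Brwd1+/-.

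Outside the segment, Atp5g2 had 31.7, 31.2 and 31.3 CPM, above all euploid libraries (log2 fold change 0.58, SE 0.10, adjusted p = 0.00212). Ndufaf2 was 1.497-fold higher (adjusted p = 0.00167). Ndufaf1 was lower, at 10.8, 9.91 and 10.3 CPM against 17.8, 13.2 and 15.2 in euploid (log2 fold change -0.57, adjusted p = 0.00411). These 3 kept their calls without any 1 library, as did Atp5j and Atp5o.

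The other named calls did not. Ndufa5, Ndufa2, Cox7a2l, Cox7c, Atp5e, Ndufb7, Ndufa13 and Sdhc had log2 fold changes of 0.35, 0.34, 0.34, 0.34, 0.30, 0.29, 0.28 and 0.20, and each lost its call when at least 1 of the libraries was left out, among them replicate 3 labelled Ts65Dn;Brwd1+/- for all 8 (0.17 to 0.35). Cox7a2l, which joins complexes III and IV into supercomplexes, had 34.9, 35.7 and 36.7 CPM against 29.3, 27.3 and 28.0 in euploid (adjusted p = 0.00883). Complex III had none called by edgeR of 8 tested, with 1 at an unadjusted p under 0.05 and 0 by DESeq2. Of the complex IV genes that stood lower in Ts65Dn, Cox7c was thus called above euploid and Cox6a2 stayed below it (-0.79, not called). The others were near their euploid level, with log2 fold changes of 0.09 for Cox6a1, 0.04 for Cox6b1 and 0.07 for Cox8a. The sign of these 3 turned without euploid replicate 3 (-0.03, -0.02 and -0.01) and without replicate 1 labelled Ts65Dn;Brwd1+/- (-0.07, -0.06 and -0.07). Cox6b2 overlapped with euploid and was not called (log2 fold change -0.31, adjusted p = 0.184), but was called without euploid replicate 1 (-0.48). Cox6a2 likewise had a log2 fold change of -0.79 (adjusted p = 0.0824) and was called without euploid replicate 3 (-1.06).

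Summed over all 92 members, expression was 7038.1, 7478.3 and 7130.8 CPM in euploid, 7267.5, 6984.3 and 6647.1 in Ts65Dn, and 8026.5, 7593.3 and 7760.5 in the libraries labelled Ts65Dn;Brwd1+/-. The means were thus 96.5% and 108% of euploid, and the last group lay above both others, which overlapped. Without Atp5j and Atp5o the means were 95.2% and 106%. Complex IV averaged 89.1% of euploid in Ts65Dn and 105% in the libraries labelled Ts65Dn;Brwd1+/-, complex V 98.0% and 111%, complex I 98.6% and 107%, and complex III 97.1% and 108%. The euploid and Ts65Dn ranges overlapped for each of these 4 complexes. For the assembly factors (90.3%) they did not.

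**Figure D4:**
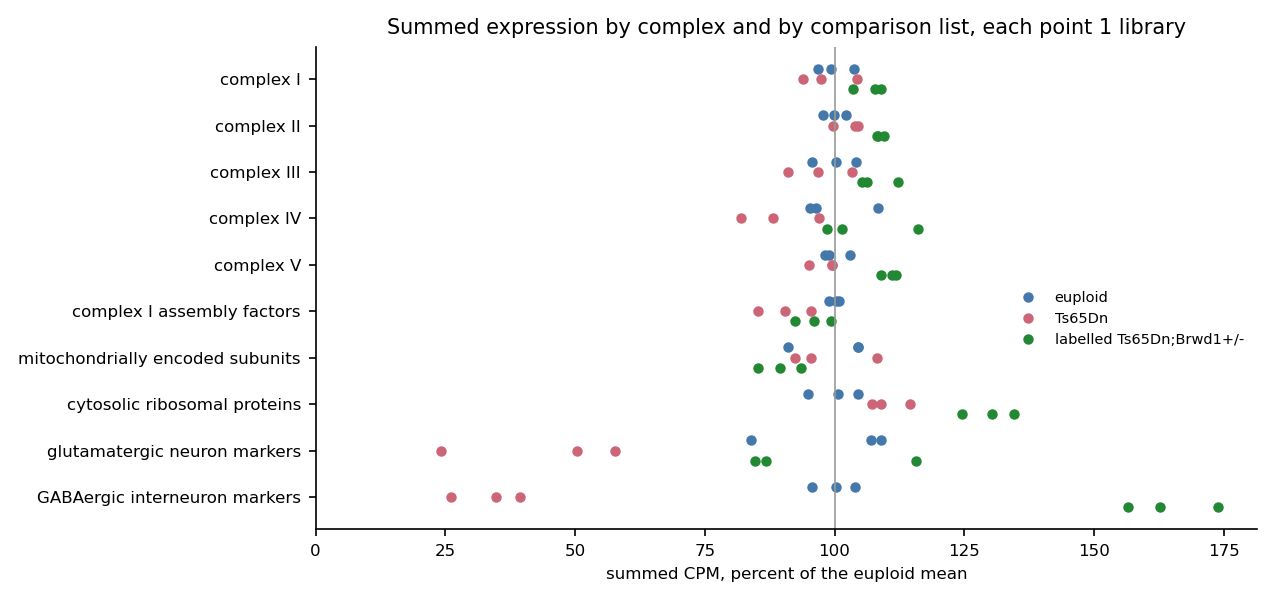
Summed CPM of each complex and of 4 comparison lists in every library (points), as percent of the euploid mean. The complexes spread over a narrow band around 100, with Ts65Dn at 89.1 on average for complex IV, whereas glutamatergic neuron markers average 44.1 and GABAergic interneuron markers 33.4 in Ts65Dn.

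Summed markers of neurons and of several other cell types differed between genotypes by more than the summed complexes. The 12 glutamatergic neuron markers, the identity and transmitter genes of excitatory cortical neurons, summed to 1431.6 to 1859.2 CPM in euploid, 411.51 to 985.24 in Ts65Dn and 1442.3 to 1971.8 in the libraries labelled Ts65Dn;Brwd1+/-, with 10 of 12 lower in Ts65Dn than in euploid. The 12 GABAergic interneuron markers summed to 679.01 to 737.7, 184.53 to 279.11 and 1110.8 to 1233.4 CPM, with 12 of 12 lower in Ts65Dn. Meningeal and fibroblast markers summed to 437.86 to 565.62, 863.33 to 1391.1 and 462.74 to 511.7 CPM, with 6 of 12 higher and 5 lower in Ts65Dn. Radial glia markers summed to 6216.4 to 6948, 8560.7 to 10740 and 5176.7 to 5794 CPM, again with 6 of 12 higher and 5 lower in Ts65Dn.

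Markers of endothelium and pericytes summed to 363.75 to 430.17, 900.81 to 1196 and 237.46 to 308.33 CPM in the same order of groups, with 3 of 7 tested higher in Ts65Dn and Cldn5 listed at 0 in every library. Microglia markers averaged 158% of their euploid sum in Ts65Dn, with 1 of 7 tested higher and 2 lower and Tmem119 near 0, and 71.0% in the third group. These means were 168% and 268% for the oligodendrocyte lineage (3 of 11 higher and 1 lower in Ts65Dn) and 112% and 111% for astrocytes (5 of 12 higher and 2 lower). All 12 cell cycle genes were higher in Ts65Dn (148% of euploid), and 11 of 12 were higher again in the libraries labelled Ts65Dn;Brwd1+/- (234%). In these bulk libraries, fewer cells of a type and less RNA per cell cannot be told apart, and their part in the values above was not tested.

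Other mitochondrial genes gave a mixed picture. The 12 tested subunits encoded by mitochondrial DNA had none called in Ts65Dn against euploid by edgeR, with 1 at an unadjusted p under 0.05 and 0 by DESeq2, and their sum averaged 98.7% of euploid. In the libraries labelled Ts65Dn;Brwd1+/- that sum was 89.4% of euploid (27336 to 29980 CPM against 29168 to 33475, which overlap), and the nuclear sum was 108%, with no overlap. There mt-Nd5 and mt-Nd6 fell against Ts65Dn, by 0.36 and 0.34 on the log2 scale (adjusted p = 0.0118 and 0.0226). Against euploid, none of the 12 was called by edgeR, with 3 at an unadjusted p under 0.05 and 3 by DESeq2. Several of these genes, mt-Co2 and mt-Co3 among them, had almost no counts although mt-Co1 averaged 8118 CPM in euploid, so their list is incomplete here.

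The 34 tested assembly factors of these complexes outside the rule had 6 higher and 7 lower in Ts65Dn, while the libraries labelled Ts65Dn;Brwd1+/- had 13 higher and 4 lower than Ts65Dn, and 4 higher and 3 lower than euploid. Among them Cox10, which makes heme o, the precursor of the heme a of complex IV, averaged 27.9 CPM in euploid, 20.4 in Ts65Dn (log2 fold change -0.46, adjusted p = 0.00198) and 31.0 in the libraries labelled Ts65Dn;Brwd1+/- (log2 fold change 0.61 from Ts65Dn, adjusted p = 1.83e-04). It was chosen after its values were seen. The X-linked complex IV subunit Cox7b followed the same order, with a log2 fold change of -0.33 in Ts65Dn (adjusted p = 0.00567) and of 0.34 from Ts65Dn to the libraries labelled Ts65Dn;Brwd1+/- (adjusted p = 0.00316). The other 2 of the 3 X-linked subunit genes, Ndufa1 and Ndufb11, were not called in any comparison.

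Of 15 citric acid cycle genes 2 were higher and 4 lower in Ts65Dn, and the libraries labelled Ts65Dn;Brwd1+/- had 2 higher and 3 lower than Ts65Dn and 1 lower than euploid. Of 18 genes of mitochondrial import and mass 2 were higher and 2 lower in Ts65Dn, and the same labelled libraries had 5 higher and 1 lower than Ts65Dn and 5 higher than euploid. Among 18 regulators of mitochondrial biogenesis 4 were higher and 2 lower in Ts65Dn, and those libraries had 6 higher than Ts65Dn and 7 higher than euploid.

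Nrf1, whose product binds the NRF1 letters shown above, had 19.6, 20.5 and 24.3 CPM in euploid, 24.1, 24.7 and 26.8 in Ts65Dn and 27.8, 27.4 and 29.0 in the libraries labelled Ts65Dn;Brwd1+/-, and was called only between the first and the last (log2 fold change 0.39, adjusted p = 0.0103). The coactivator Ppargc1a and the mitochondrial transcription factor Tfam were not called in any comparison (log2 fold changes -0.25 to -0.08 and -0.02 to 0.15). The 81 tested cytosolic ribosomal protein genes, another set of short and abundant transcripts, had a median log2 fold change of 0.11 in Ts65Dn, with 16 higher. In the libraries labelled Ts65Dn;Brwd1+/- their median was 0.25 relative to Ts65Dn, with 44 higher and 3 lower, and 0.36 relative to euploid, with 59 higher.

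In the adult hippocampus the promoters of members were mostly open in each genotype. SMARCA2/4 promoter peaks named members almost only in the euploid list, which held 22667 peaks against 1290 in Ts65Dn and 1873 in Ts65Dn;Brwd1+/-. All autosomal protein-coding genes were likewise named mostly there (27.1% against 2.13% and 2.63%). The authors called 1 list per assay and genotype, so these are counts with no replicate and no test. In the neuronal ATAC-seq lists a promoter peak named 64 of 92 members in euploid (69.6%, beside 39.7% of all autosomal protein-coding genes), 66 in Ts65Dn (71.7% beside 48.9%) and 73 in Ts65Dn;Brwd1+/- (79.3% beside 48.6%). The lists held 15521, 29195 and 30244 peaks. Of the members 56 had such a peak in all 3 lists and 16 in none. The 16 included Cox6a2, Cox6b2, Cox7a1, Cox8b and Cox8c, the paralogs known from other tissues, but also Cox4i1, Sdhd and Cycs. For 7 of the 16 (Cycs, Cox4i1, Sdhd, Atp5f1, Ndufa11, Ndufa13 and Ndufb2) each list did hold an open region within 1000 bases of the start, which the authors had named for a neighboring gene. Its fold enrichment was 7.23, 7.93 and 7.02 at Cycs and 4.29, 4.91 and 3.58 at Cox4i1.

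Median fold enrichment over members with a peak was 4.73 for euploid, 5.79 for Ts65Dn and 4.77 for Ts65Dn;Brwd1+/-, beside 4.54, 5.32 and 4.46 over all protein-coding genes with one. Ndufv1, with 7.25, 11.1 and 7.67, was the highest in the Ts65Dn list and second in the others, after Sdha (7.80) in euploid and Ndufaf7 (7.95) in Ts65Dn;Brwd1+/-. The triplicated genes did not stand out: Atp5j had 5.19, 4.92 and 4.62 and Atp5o 3.98, 4.33 and 4.05. Cox6a1 had 5.64, 5.97 and 6.04, Cox7c 6.07, 5.81 and 5.53, and Cox8a 4.70, 6.46 and 4.76. Both Atp5j sites printed above lie inside its open region in each list. These sites also lie within the bounds of Gabpa on the other strand.

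The SMARCA2/4 lists of euploid, Ts65Dn and Ts65Dn;Brwd1+/- mice held 22667, 1290 and 1873 peaks. A promoter peak named 23 members in euploid (25.0%, beside 27.1% of all autosomal protein-coding genes), 0 in Ts65Dn (0%, beside 2.13%) and 1, Ndufa4l2, in Ts65Dn;Brwd1+/- (1.09%, beside 2.63%). The euploid members were thus named about as often as other genes. They included 8 of 17 complex V genes, 5 of 34 of complex I, 4 of 9 of complex III and 4 of 17 of complex IV, as well as Cycs and Ndufa4l2. Atp5j had a pair of them, at chr16:84834542-84834613 (fold enrichment 4.72, q = 5.67e-05) and chr16:84834769-84834874 (3.27, q = 0.054). Both also lie close before the start of Gabpa on the other strand, so they cannot be given to Atp5j alone. Cox8a had a fold of 4.45 at chr19:7217343-7217445 and Cycs one of 3.82 at chr6:50566009-50566088, while Cox6a1, Cox6b1, Cox7c and Cox6b2 had none. The highest promoter fold of each of the 23 members lay between 2.87 and 4.72. The shorter trisomic lists hold few genes of any kind.

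**Figure D5:**
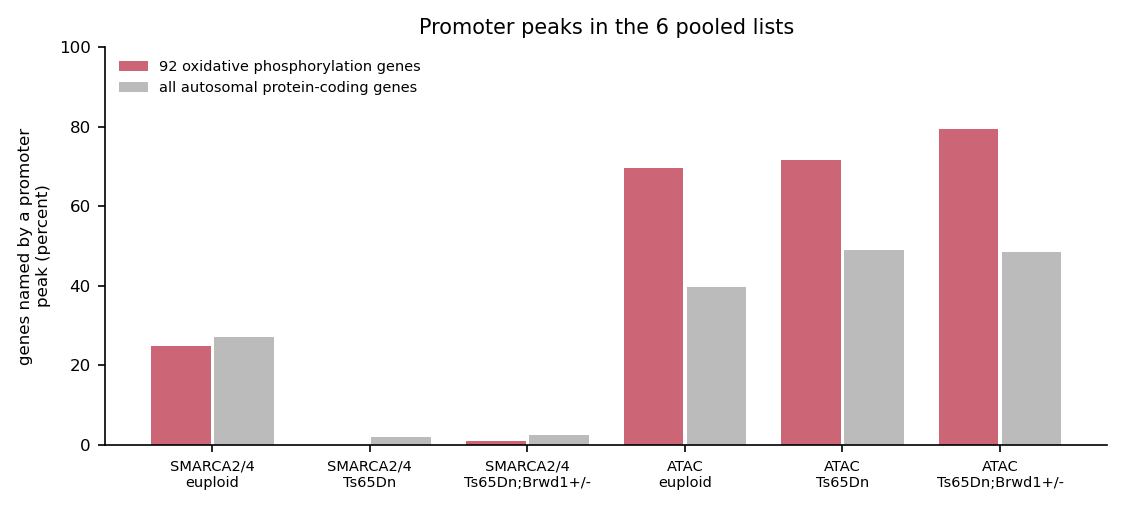
Percent of the 92 members (red) and of all autosomal protein-coding genes (gray) named by a promoter peak in each pooled list. Members stand at 69.6 to 79.3 in the 3 ATAC-seq lists, above the gray bars, and at 25.0 beside 27.1 in the euploid SMARCA2/4 list.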

How the data were processed

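RNA-seq, ChIP-seq and ATAC-seq files of 42 samples were used. Per the labels and methods, the authors aligned reads to mm10 with HISAT2, counted single-end, unstranded reads per gene (featureCounts is named, but the deposited count files end in the summary lines of htseq-count) and tested with DESeq2. The deposited counts are whole reads per gene. Lines that name no gene held 37.4% to 40.0% of each file, 19.0% to 21.5% of it reads that aligned more than once, and were left out. The authors called peaks on pooled replicates. The deposited peak lists give a fold enrichment (over input for ChIP-seq, with no input for ATAC-seq) and a q-value, with region classes by the authors, whose promoter classes were used here.

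Members and lists were chosen with earlier results of these data known. All 9 culture libraries entered 1 edgeR 4.0.16 quasi-likelihood fit in R 4.3.3 (filterByExpr, TMM, Benjamini-Hochberg adjustment over all 17173 tested genes, threshold 0.05), in place of the authors' RUVr and DESeq2. DESeq2 1.42.0 was an alternative. In data simulated for Ts65Dn against euploid on 17173 genes the fit recovered 51 of 100 genes changed 1.5-fold and 69 of 100 changed 0.5-fold, so small changes can be missed. Only these genes were changed there, drawn from all expression levels, with the same spread for every gene. The real data hold far more changed genes, so the rates do not describe the members. Named genes were the 12 largest called members per comparison without overlap between groups, plus paralogs, complex II, cytochromes, Ndufv3, Atp5j and Atp5o. Other genes named were chosen after their values were seen. CPM used TMM library sizes, and exon lengths came from GENCODE vM21. Same-numbered libraries correlated at 0.129 to 0.263 in euploid and Ts65Dn and at -0.162 to 0.279 in the other comparisons. Differently numbered libraries reached 0.248. Sample titles give a number but state no pairing. The main fit used genotype only, with the replicate number as a block in an alternative fit. Overlapping Ensembl genes and other settings (scaling, filters, a residual factor, a replicate block, exon length, leaving out each library) were checked. No replicate libraries were duplicates.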

Additional observations from a re-analysis of the deposited data

How the results depend on the processing

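Of 1282 values for named genes under other settings, 1108 kept direction and side of the threshold, 100 lost the call, 43 gained one and 31 changed sign, all of the last with no call in the main analysis. The count of called members was 12 to 24 with 1 library left out in Ts65Dn against euploid, 15 to 33 when the libraries labelled Ts65Dn;Brwd1+/- were set beside Ts65Dn, and 5 to 16 when set beside euploid, where the median log2 fold change was 0.037 to 0.124. Removing the exon length trend moved the median to -0.139 in Ts65Dn against euploid (all genes 0.017) and to 0.239 from Ts65Dn to the libraries labelled Ts65Dn;Brwd1+/-, where the count became 48, and 40 at a threshold of 0.1. With the replicate block the counts were 25, 28 and 14. The block gave Ndufa4 a call in Ts65Dn against euploid (-0.206, adjusted p = 0.0395) and in the labelled libraries against Ts65Dn (0.187, adjusted p = 0.047), and ended those of Atp5g2 against Ts65Dn and of Ndufa13 against euploid (0.282, adjusted p = 0.0565) and no other. The cause of these moves was not tested.

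Signs changed in Ts65Dn against euploid with upper-quartile scaling for Sdha (0.004), Sdhd (0.018) and Cox4i1 (0.015), and for Atp5g3 with DESeq2 (-0.002). Sdhb and Atp5g3 turned with no filter (-0.009 and -0.013), with 10 counts in every library (-0.014 and -0.017), with only the 2 groups (-0.006 and -0.010) and with the exon length trend removed (-0.065 and -0.073). Atp5j against Ts65Dn turned with 10 counts in every library (0.014) and without the exon length trend (0.024). With 1 library left out, values in Ts65Dn against euploid ranged for Sdhb from -0.014 to 0.091, Sdhd from -0.072 to 0.054, Cox4i1 from -0.073 to 0.03 and Atp5g3 from -0.055 to 0.041. Those of the libraries labelled Ts65Dn;Brwd1+/- ranged, relative to euploid, for Cox6a1 from -0.067 to 0.201, Cox6b1 from -0.055 to 0.072, Cox8a from -0.071 to 0.16, Ndufa4 from -0.069 to 0.028 and Ndufa4l2 from -0.359 to 0.306, and relative to Ts65Dn for Ndufa4l2 from -0.613 to 0.052. Promoter peaks at a fold enrichment over 5 named 28, 42 and 33 members in the euploid, Ts65Dn and Ts65Dn;Brwd1+/- ATAC-seq lists and 0 in the euploid and Ts65Dn;Brwd1+/- SMARCA2/4 lists, and the latter named 0 within 1000 bases of a start.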
